A study of Mus musculus with 5 samples.

Results

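Intermediate filaments were represented by 9 genes: the simple-epithelium keratins Krt7, Krt8, Krt18 and Krt19, the type III and type VI proteins vimentin (Vim) and nestin (Nes), and the nuclear lamins Lmna, Lmnb1 and Lmnb2. The 9 genes were chosen by name, with their difference between the genotypes already known from these same samples, out of 55147 gene symbols in the table. Their WT and C3G KO values are therefore a description with no p-value, and a count of them past a threshold is not evidence. The study compared 3 WT samples of E14Tg2a mouse embryonic stem (ES) cells with 2 samples of C3G KO cells derived from them, to ask which genes depend on C3G, the guanine nucleotide exchange factor for Rap GTPases encoded by Rapgef1. The C3G KO cells carry a targeting vector with puromycin resistance, knocked in at the C3G gene by CRISPR, and were picked as colonies after selection. WT cells are the unmodified parent line and went through neither nucleofection nor puromycin. Both genotypes grew on gelatin in medium with serum and leukemia inhibitory factor (LIF), with no treatment, and total RNA was sequenced as paired-end reads. Which clone gave each C3G KO sample is not given in the sources used here.

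Intermediate filament proteins form rope-like polymers from long coiled-coil dimers. Keratins polymerise only as pairs of a type II protein (Krt7, Krt8) with a type I protein (Krt18, Krt19), and Krt8 and Krt18 are the first keratins made in the mouse embryo, most strongly in the trophectoderm. Vimentin builds the cytoplasmic filaments of mesenchymal cells, and nestin co-polymerises with it in progenitor cells. Lamins line the inner face of the nuclear envelope, where B-type lamins (Lmnb1, Lmnb2) are made in nearly all cells and A-type lamins (from Lmna) increase as cells differentiate.

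Levels are TPM, the length-corrected share of all transcripts in a sample, and so can be compared between genes, but they keep no read depth. Protein-coding genes took 28.8% to 31.8% of all TPM in WT samples and 18.6% and 26.0% in C3G KO samples, because small RNAs took 63.2% to 67.6% and 78.5% and 69.8%. The 9 genes are therefore given in TPM as deposited and in "scaled TPM", in which every sample was divided by a size factor, the median over genes of its ratio to the mean profile of all samples. For other genes the log2 fold changes are scaled unless said otherwise. The median log2 fold change of the 12518 genes tested was -0.55 as deposited and 0.0052 after scaling, and each deposited value below should be read against that shift. Rapgef1 (ENSMUSG00000039844) stood at 11.56, 10.31 and 9.64 TPM in WT and at 3.92 and 5.55 TPM in C3G KO, a scaled log2 fold change of -0.41 ± 0.059 (SE; limma, adjusted p = 0.00444). Its transcripts were thus still counted in the KO cells, and the gene total does not resolve the targeted exons. Of 10 ES cell markers, 2 rose and none fell after scaling (limma, with none lower and 4 higher at an unadjusted p under 0.05), while none passed in either direction as deposited (limma, with 3 lower and none higher at an unadjusted p under 0.05). As the samples are bulk cultures, fewer cells of a type and less RNA per cell cannot be told apart.

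Krt8 and Krt18 lie next to each other on mouse chromosome 15, head to head and 23.7 kb apart, at chr15:101996698-102004482 (minus strand) and chr15:102028180-102032027 (plus strand) of GRCm38. Their upstream sequences are shown because these 2 genes had the lowest C3G KO levels relative to WT of the 9. Each line gives the bases just before the annotated start of the gene, read 5′ to 3′ along its own strand from the RefSeq promoter table (GRCm38.p6), at chr15:102004483-102004592 for Krt8 and chr15:102027966-102028179 for Krt18. Capitals mark a match to the Ets core GGAAGT, here on the opposite strand.
Krt8: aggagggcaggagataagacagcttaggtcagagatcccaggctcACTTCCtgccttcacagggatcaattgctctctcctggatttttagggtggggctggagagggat
Krt18: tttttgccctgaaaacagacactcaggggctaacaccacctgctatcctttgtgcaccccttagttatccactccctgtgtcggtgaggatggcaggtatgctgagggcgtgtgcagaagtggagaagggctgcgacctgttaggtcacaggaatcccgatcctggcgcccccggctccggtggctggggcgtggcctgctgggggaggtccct
The Krt8 stretch is 110 bases long with 53.6% G+C, and that of Krt18 is 214 bases with 60.7% G+C. Both strands were searched for the TATA box, spelled as TATAAA, the GC box as GGGCGG, the AP-1 site as TGANTCA, the Ets core as GGAAGT and the E-box as CACGTG, and for the CArG box. These printed stretches held the 1 Ets match in Krt8 and no match in Krt18, which says only that those letters are not in this stretch.

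RefSeq windows, from 250 bases before to 50 bases after a start, were searched for 7 of the 9 genes, all but Krt19 and Lmnb1. Windows on chromosome 18, where Lmnb1 lies, were left out of the search. Among 32851 such windows, 35.7% held a GC box, 23.8% an Ets match, 13.6% a TATA box, 7.81% an AP-1 match, 7.15% an E-box and 1.63% a CArG box. The full Krt8 window also held 2 overlapping TATAAA matches within 3 bases of the RefSeq start, which lies inside the annotated gene. The Krt7 window held 4 GC boxes and 1 Ets match, and the Vim window 1 TATA box, 32 bases before the start, and 1 Ets match. The Nes window held 2 GC boxes. Of the 2 windows of Lmna, one held a GC box, an AP-1 match and an Ets match, and the other an Ets match. One Lmnb2 window held 1 GC box. No window of the 7 genes held an E-box or a CArG box, and the windows of the keratins shared no motif across all 3 of those found.

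The 4 keratins were the lowest of the 9 genes in C3G KO relative to WT. Their summed level was 221.45, 218.48 and 219.91 TPM in WT and 13.74 and 17.66 TPM in C3G KO, which is 7.14% of the WT mean as deposited and 11.5% after scaling.

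Krt8 (ENSMUSG00000049382), the main type II keratin of simple epithelia, stood at 89.08, 88.25 and 89.62 TPM in WT and at 5.43 and 6.37 TPM in C3G KO. The WT samples lay within 2 TPM of each other, and both C3G KO samples were far below them. After scaling the means were 73.4 ± 7.29 (SD, n = 3) and 7.90 ± 1.23 (SD, n = 2), a ratio of 9.29 and a log2 fold change of -3.07 ± 0.12 (SE). Without scaling the log2 fold change was -3.71 ± 0.27.

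Krt18 (ENSMUSG00000023043), the type I partner of Krt8, stood at 102.37, 102.81 and 103.51 TPM in WT and at 6.08 and 8.39 TPM in C3G KO. It was the most abundant of the 9 genes in every WT sample. Its scaled means were 84.9 ± 8.56 (SD, n = 3) and 9.54 ± 0.401 (SD, n = 2), a ratio of 8.90 and a log2 fold change of -3.02 ± 0.099. The deposited value was -3.67 ± 0.27.

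Krt19 (ENSMUSG00000020911, chr11:100140810-100148665, minus strand), a small type I keratin, stood at 25.52, 23.54 and 22.96 TPM in WT and at 1.75 and 2.54 TPM in C3G KO. The scaled log2 fold change was -2.44 ± 0.066 and the deposited one -3.00 ± 0.25. It sits on another chromosome than the other 3 keratins and again had no overlap between the genotypes.

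Krt7 (ENSMUSG00000023039, chr15:101411043-101430313, plus strand), the second type II keratin, was the least abundant of the 9 genes. It stood at 4.48, 3.88 and 3.82 TPM in WT and at 0.48 and 0.36 TPM in C3G KO. The C3G KO mean was 17.6% of WT after scaling. Its log2 fold change of -1.46 ± 0.11 was taken on log2(scaled TPM + 1), a scale that understates differences of low genes.

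The balance between keratin partners was kept in a narrower range than their levels. Krt8 divided by Krt18, a ratio within each sample that no scaling alters, was 0.870, 0.858 and 0.866 in WT and 0.893 and 0.759 in C3G KO. The C3G KO samples lay on either side of the WT samples. Type II over type I keratins was 0.732, 0.729 and 0.739 in WT against 0.755 and 0.616 in C3G KO, again on both sides. Krt19 over Krt18 was 0.249, 0.229 and 0.222 in WT and 0.288 and 0.303 in C3G KO, so Krt19 had the higher share in both C3G KO samples.

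Vimentin (Vim, ENSMUSG00000026728, chr2:13573927-13582826, plus strand) stood at 79.85, 76.80 and 74.90 TPM in WT and at 15.15 and 21.01 TPM in C3G KO. The genotypes did not overlap. After scaling, the C3G KO mean of 23.8 ± 0.917 (SD, n = 2) was 37.5% of the WT mean of 63.5 ± 4.05 (SD, n = 3). The log2 fold change was -1.38 ± 0.081 scaled and -2.05 ± 0.27 as deposited.

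Nestin (Nes, ENSMUSG00000004891, chr3:87971078-87980451, plus strand) stood at 10.04, 8.70 and 7.62 TPM in WT and at 1.30 and 2.39 TPM in C3G KO. Its scaled C3G KO mean was 33.0% of WT, with a log2 fold change of -1.28 ± 0.088 (deposited -1.80 ± 0.23). Nestin, the partner that needs vimentin to assemble in most cells, kept a similar ratio to it. Nes over Vim was 0.126, 0.113 and 0.102 in WT and 0.0858 and 0.114 in C3G KO, and these ranges overlapped.

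Lmna (ENSMUSG00000028063, chr3:88480147-88509956, minus strand), which encodes lamins A and C and lies on the same chromosome as Nes, stood at 17.18, 15.19 and 14.49 TPM in WT and at 3.92 and 5.58 TPM in C3G KO. No C3G KO sample reached the WT range, and the scaled C3G KO mean was 48.8% of WT. The log2 fold change was -0.93 ± 0.060 scaled and -1.54 ± 0.25 as deposited.

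The B-type lamins had the smallest differences of the 9 genes, and their size moved with the scaling. Lmnb1 (ENSMUSG00000024590, chr18:56707813-56753424, plus strand) stood at 76.79, 72.68 and 57.17 TPM in WT and at 23.96 and 48.82 TPM in C3G KO. After scaling the values were 57.5, 59.6 and 51.8 in WT and 38.7 and 53.9 in C3G KO, so that the second C3G KO sample lay within the WT range. The scaled log2 fold change was -0.29 ± 0.15, and taken from each C3G KO sample alone it was -0.53 and -0.060. As deposited it was -0.98 ± 0.27, and -0.51 ± 0.17 when samples were scaled to the protein-coding total.

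Lmnb2 (ENSMUSG00000062075, chr10:80901203-80918245, minus strand) stood at 12.37, 11.67 and 11.07 TPM in WT and at 5.11 and 8.33 TPM in C3G KO. Its scaled values were 9.27, 9.57 and 10.0 in WT and 8.26 and 9.19 in C3G KO, which is 90.7% of WT on average. The scaled log2 fold change was -0.13 ± 0.072, against -0.75 ± 0.25 as deposited and -0.33 ± 0.083 with the protein-coding total, and its sign turned to 0.047 when gene length and GC content were corrected for. The ratio of Lmnb1 to Lmnb2 was 6.21, 6.23 and 5.16 in WT and 4.69 and 5.86 in C3G KO, with overlap. Lmna over the summed B-type lamins was 0.193, 0.180 and 0.212 in WT and 0.135 and 0.0976 in C3G KO, lower in both C3G KO samples.

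**Figure D1:**
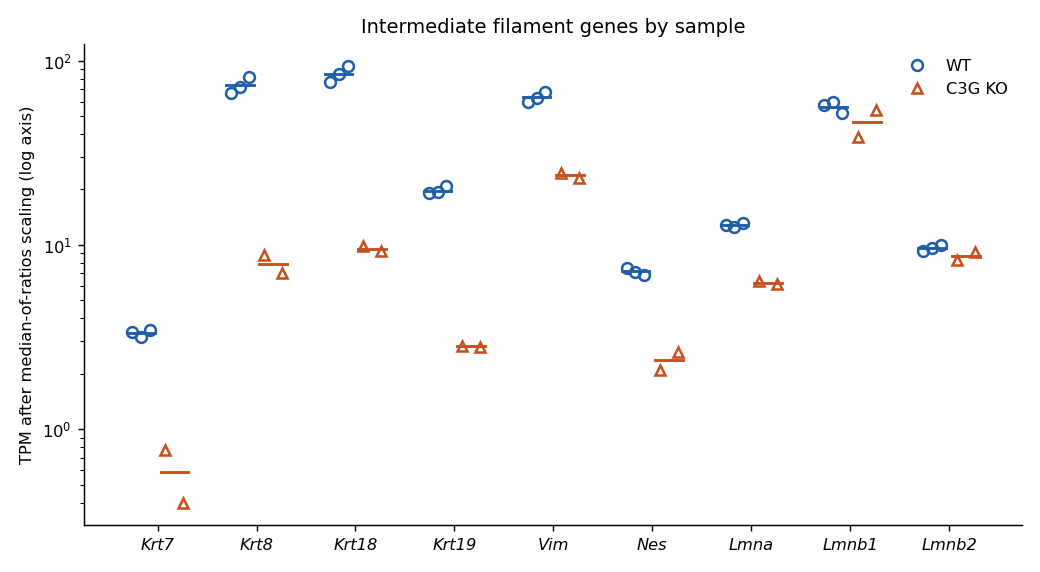
Scaled TPM on a log axis for each of the 9 genes, with circles for the 3 WT samples, triangles for the 2 C3G KO samples and a line at each mean. The genotypes are furthest apart for Krt8 and Krt18 and overlap for Lmnb1, where the second C3G KO sample (53.9) lies among the WT values.

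Of the 9 genes, 8 had both C3G KO samples below all WT samples after scaling, beside 29.3% of all 12518 genes, and 9 as deposited, beside 75.7%. By limma, 7 of the 9 passed the threshold as lower after scaling (16.6% of all genes did, and 14.1% as higher), and 9 as deposited (56.8%, with 1.45% higher). Nothing is read from these counts, since the genes were chosen on this contrast. The median log2 fold change of the 9 genes was -1.38 scaled, with Vim at the median, and -1.83 as deposited.

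Ordered from the most negative scaled log2 fold change among all 12518 genes, Krt8 was number 9 and Krt18 number 10. Krt19 was number 18, Krt7 number 79, Vim number 101, Nes number 123 and Lmna number 304. The B-type lamins stood far down the order, at number 2192 for Lmnb1 and number 4000 for Lmnb2. In the deposited values Krt8 and Krt18 were number 4 and number 5. Both orders rest on log2(TPM + 1), which understates differences of low genes, so they are not orders of plain fold change. After scaling Vim stood before Nes, though the C3G KO mean was 37.5% of WT for Vim and 33.0% for Nes.

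**Figure D2:**
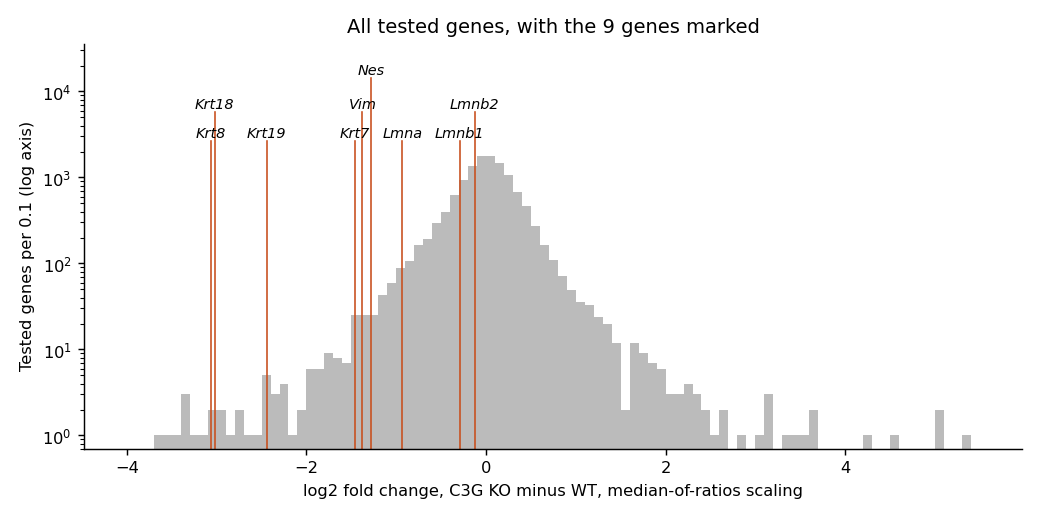
Histogram of the scaled log2 fold changes (C3G KO minus WT) of all 12518 tested genes, with the count per 0.1 on a log axis and a vertical line at each of the 9 genes. Krt8 (-3.07), Krt18 (-3.02) and Krt19 (-2.44) lie in the sparse left tail, while Lmnb1 (-0.29) and Lmnb2 (-0.13) lie within the bulk.

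Summed over the 9 genes, the level was 313, 331 and 349 scaled TPM in WT and 102 and 115 in C3G KO. The mix within that sum was unlike in the genotypes. Keratins made up 53.0%, 54.1% and 57.1% of it in WT and 21.7% and 17.0% in C3G KO. Lamins made up 25.5%, 24.7% and 21.5% in WT and 52.2% and 60.4% in C3G KO. These shares are taken within a sample, and neither scaling nor the small RNA share enters them.

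The share of vimentin differed less than those of keratins and lamins but was higher in both C3G KO samples. It was 19.1%, 19.0% and 19.4% in WT and 24.0% and 20.2% in C3G KO. Nestin stayed at 2.40%, 2.16% and 1.98% in WT against 2.06% and 2.30% in C3G KO. The most abundant gene was Krt18 in each WT sample and Lmnb1, with 37.9% and 47.0% of the sum, in each C3G KO sample. Vim over the summed keratins was 0.361, 0.352 and 0.341 in WT and 1.10 and 1.19 in C3G KO. By gene totals, Vim thus exceeded the 4 keratins in the C3G KO samples only. These totals include intron-retaining forms of Vim. The main coding form of Vim stood at 9.31 and 14.42 TPM in C3G KO. That is below the sum of Krt8 (5.43 and 6.37) and Krt18 (6.08 and 8.39) in each sample.

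**Figure D3:**
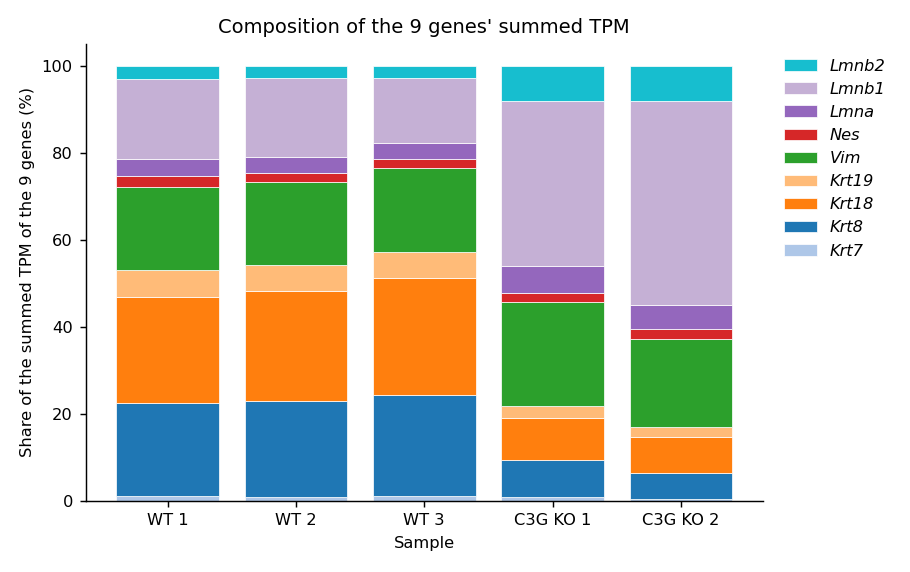
Stacked bars of each gene's share (%) of the summed TPM of the 9 genes in each of the 5 samples. Keratins fill 53.0% to 57.1% of the WT bars and 17.0% to 21.7% of the C3G KO bars, where Lmnb1 is the largest block.

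Krt8 and Krt18 have 1 annotated transcript each, of 490 and 423 codons, so their gene and transcript values are the same. The coding form of Krt19 went from 16.9 ± 1.06 TPM (SD, n = 3) in WT to 1.71 ± 0.184 TPM (SD, n = 2) in C3G KO, and its non-coding form from 7.14 ± 2.30 to 0.435 ± 0.375 TPM. The coding form of Vim held 66.7% of the gene's TPM in WT and 65.0% in C3G KO, and an intron-retaining form held 27.3% and 26.5%. The split of Vim between its forms was thus close to equal in the genotypes.

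Lmna yields lamin A from a transcript of 665 codons and lamin C from one of 574 codons. The lamin C form of Lmna stood at 10.8 ± 1.10 TPM in WT and 3.38 ± 1.07 TPM in C3G KO, and the lamin A form at 4.11 ± 0.389 and 1.14 ± 0.120 TPM. The former held 69.0% of Lmna TPM in WT and 70.4% in C3G KO, and the latter 26.4% and 24.3%. For Lmnb1 the coding form held 86.0% and 92.6%. After scaling, this coding form stood at 51.1, 51.4 and 42.9 TPM in WT and at 35.2 and 50.9 TPM in C3G KO, with overlap. As deposited it stood at 68.17, 62.76 and 47.37 TPM in WT and at 21.75 and 46.08 TPM in C3G KO, without overlap. The intron-retaining form stood, after scaling, at 6.46, 8.13 and 8.88 TPM in WT and at 3.57 and 3.02 TPM in C3G KO. As deposited the latter form was at 9.45 ± 0.718 TPM in WT and 2.48 ± 0.375 TPM in C3G KO. These transcript values are estimates that split shared reads.

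Among annotated transcripts of other genes, only Krt8-ps matched one of the 9 at 95% identity or more over 200 bases or more. This Krt8 pseudogene is 98.6% identical to Krt8 over 941 bases and stood at 1.58, 1.09 and 1.21 TPM in WT and 0.11 in each C3G KO sample. Reads of Krt8 and Krt8-ps may have been exchanged, and the pseudogene's level is small beside that of Krt8.

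The rest of the intermediate filament family was mostly silent. Of 62 other genes (all other numbered keratins, desmin, peripherin, neurofilaments, synemin and relatives), 12 passed the filter of 1 TPM in 2 samples, 50 did not, and 10 were listed at 0 in all samples. By limma, 7 of the 12 fell, 1 rose and 4 did not pass the threshold after scaling. As deposited, 11 fell. Each list count, here and below, stands beside the shares over all 12518 genes. These were 16.6% lower and 14.1% higher after scaling, and 56.8% lower and 1.45% higher as deposited. The median log2 fold change of the 12 was -0.31 scaled and -0.75 as deposited. The count of 7 became 4 without the second WT sample or without the first C3G KO sample, and 2 when only genes of 5 TPM or more were tested.

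Nefl, the neurofilament light chain, stood at 6.99, 7.07 and 6.71 TPM in WT and at 0.77 and 1.53 TPM in C3G KO (log2 fold change -1.45 ± 0.10, limma adjusted p = 0.00046). Nefm, the medium chain, fell by 0.58 (SE 0.11, adjusted p = 0.0130), and its annotated body overlaps that of Nefl. Both sit on chromosome 14, where all 20 other tested genes within 2 Mb of Nefl fell as well, with a median log2 fold change of -0.89 and a range of -1.78 to -0.44. The Nefm call was lost without the first C3G KO sample (adjusted p = 0.0697) and with quantile normalization (-0.25, adjusted p = 0.159). Whether the copy number of this region differs between WT and C3G KO cells was not tested, so the falls of Nefl and Nefm, 2 of the 7 in the family, cannot be told apart from a difference of the whole region. Prph, the type III protein peripherin of peripheral neurons, went from 4.80, 5.21 and 4.66 TPM in WT to 0.84 and 1.71 TPM in C3G KO (-0.94 ± 0.11, adjusted p = 0.00247).

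The other 4 that fell did so by less than Nefl and Prph. Iffo2 had a log2 fold change of -0.62 ± 0.11 (adjusted p = 0.00941), and Synm, which encodes synemin, a partner of desmin and vimentin, -0.57 ± 0.077 (adjusted p = 0.00368). The heavy neurofilament chain Nefh was at -0.37 ± 0.084 (adjusted p = 0.0209) and the muscle protein desmin (Des) at -0.26 ± 0.076 (adjusted p = 0.0482). The Des call was lost when any 1 sample was left out. The Nefh call was lost without the second WT sample (adjusted p = 0.0664) or the first C3G KO sample (adjusted p = 0.0698), and with the length and GC correction, where its log2 fold change was -0.17 (adjusted p = 0.166). By limma, Krt10, a keratin of differentiated epidermis (-0.16, adjusted p = 0.385), Krt17 (-0.20, adjusted p = 0.218), Iffo1 (-0.20, adjusted p = 0.130) and the neuronal alpha-internexin Ina (-0.03, adjusted p = 0.848) did not pass the threshold. Krt42, a type I keratin on chromosome 11, rose by 0.37 ± 0.066 after scaling (limma, adjusted p = 0.00973) but was at -0.24 as deposited, where it did not pass (adjusted p = 0.367), and at 0.17 with the protein-coding total (adjusted p = 0.126).

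**Figure D4:**
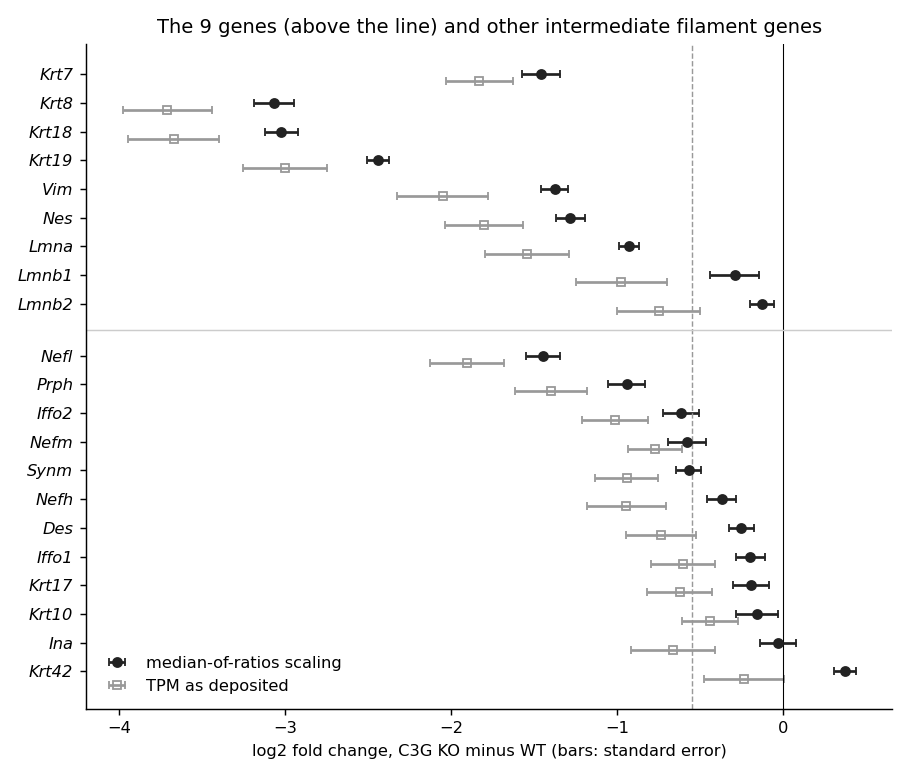
Log2 fold changes (C3G KO minus WT) with standard errors of the 9 genes, above the horizontal line, and of the 12 other tested intermediate filament genes, below it; filled circles are scaled and open squares are as deposited, and the dashed line marks the deposited median of all genes (-0.55). Krt8 and Krt18 lie near -3 on the scaled axis, Krt42 at 0.37 is the 1 gene right of 0, and Lmnb2 lies close to 0.

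Genes for proteins that tie filaments to junctions and to each other were mostly lower. Of 20 filament linker genes, 17 were tested, 12 fell by limma after scaling and 5 did not pass, with none higher at an unadjusted p under 0.05 (as deposited, all 17 fell). Their median log2 fold change was -0.55 scaled and -1.21 as deposited. Desmoplakin (Dsp), which anchors keratins at desmosomes, stood at 13.20, 11.99 and 9.44 TPM in WT and at 1.55 and 2.93 TPM in C3G KO (-1.43 ± 0.11, adjusted p = 0.000516). Periplakin (Ppl), a plakin of the same family, was at -1.43 ± 0.073 (adjusted p = 0.000194), and the desmosomal cadherin Dsc2 at -1.16 ± 0.078 (adjusted p = 0.00042).

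Genes of the nuclear envelope that bind or anchor lamins had a median nearer 0. Of 22 lamina partners, 19 were tested. After scaling 4 fell, 1 rose and 14 did not pass, beside 16.6% of all genes lower and 14.1% higher. As deposited 15 fell, beside 56.8% of all genes. The count of 4 was 2 without the second WT sample and 2 without the second C3G KO sample. Their summed level was 345 to 357 scaled TPM in WT and 350 to 354 in C3G KO, against 394 to 461 and 216 to 321 TPM as deposited. Their median log2 fold change was -0.16 scaled and -0.67 as deposited. Tor1aip1 (LAP1), which binds lamins and activates torsin, fell most, from 5.90, 4.55 and 4.49 TPM to 1.18 and 1.92 TPM (-0.75 ± 0.083, limma adjusted p = 0.00186). The LEM-domain protein gene Lemd2 was at -0.46 ± 0.061 (adjusted p = 0.00349) and Tmem43 at -0.36 ± 0.082 (adjusted p = 0.0211). The Tmem43 call was lost without the second WT (adjusted p = 0.0578), the third WT (0.0525) or the second C3G KO sample (0.0853). The torsin gene Tor1a rose by 0.26 ± 0.066 after scaling (adjusted p = 0.0291) but was at -0.37 as deposited (adjusted p = 0.178), and the call was lost with the protein-coding total (0.06, adjusted p = 0.519) and without the first or second WT sample or either C3G KO sample (adjusted p = 0.0670 to 0.123).

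All 5 genes that process prelamins at their C terminus were tested. After scaling 1 rose and none fell (limma, none lower at an unadjusted p under 0.05). As deposited 3 fell, beside 56.8% of all genes. Fnta, the alpha subunit of farnesyltransferase, rose by 0.43 ± 0.097 after scaling (adjusted p = 0.0209) and was at -0.25 as deposited (adjusted p = 0.398). This call was lost with the protein-coding total (0.21, adjusted p = 0.0646) and without the first (adjusted p = 0.0912) or the second C3G KO sample (adjusted p = 0.0548).

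Transcription factors of the AP-1 and Ets families, long known to act on the KRT18 gene, were listed because of that history. Of 9 such genes 7 were tested and 5 fell by limma after scaling, with none higher at an unadjusted p under 0.05, and all 7 fell as deposited. Their median log2 fold change was -0.92 scaled. Fosl2 stood at 3.49, 3.17 and 2.93 TPM in WT and at 0.18 and 0.29 TPM in C3G KO (-1.47 ± 0.069, adjusted p = 0.000144). Junb went from 19.53, 17.74 and 14.58 TPM to 4.13 and 6.32 TPM (-0.95 ± 0.071, adjusted p = 0.000522), and Jun was at -0.98 ± 0.10 (adjusted p = 0.00154). Whether these factors have a part in the keratin values was not tested.

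Genes next to the 9 mostly did not share their low levels after scaling. Within 200 kb of any of them, 60 other genes were tested, of which 5 fell and 11 rose after scaling. Of all 12518 genes, 16.6% fell and 14.1% rose. The median log2 fold change of the 60 was 0.025. The nearest tested gene beyond Krt18 was Eif4b, a translation initiation factor gene 41.7 kb away, at 0.22 (limma, adjusted p = 0.184; -0.47 as deposited). On the Krt8 side, the nearest tested gene outside the 9 was Atg101, an autophagy gene 706 kb away, at 0.04 (adjusted p = 0.846; -0.62 as deposited). Neighbours of Krt8 ranged from -0.26 to 0.60, those of Krt19 from -0.20 to 0.38 and the 2 of Vim from -0.11 to 1.31. For each of the 9 genes but Lmnb2, no neighbour had a more negative value than the gene itself. Nothing is read from that order, since the 9 genes were chosen on this contrast and their neighbours were not. Of the 14 neighbours of Lmnb2, 5 were lower than it.

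**Figure D5:**
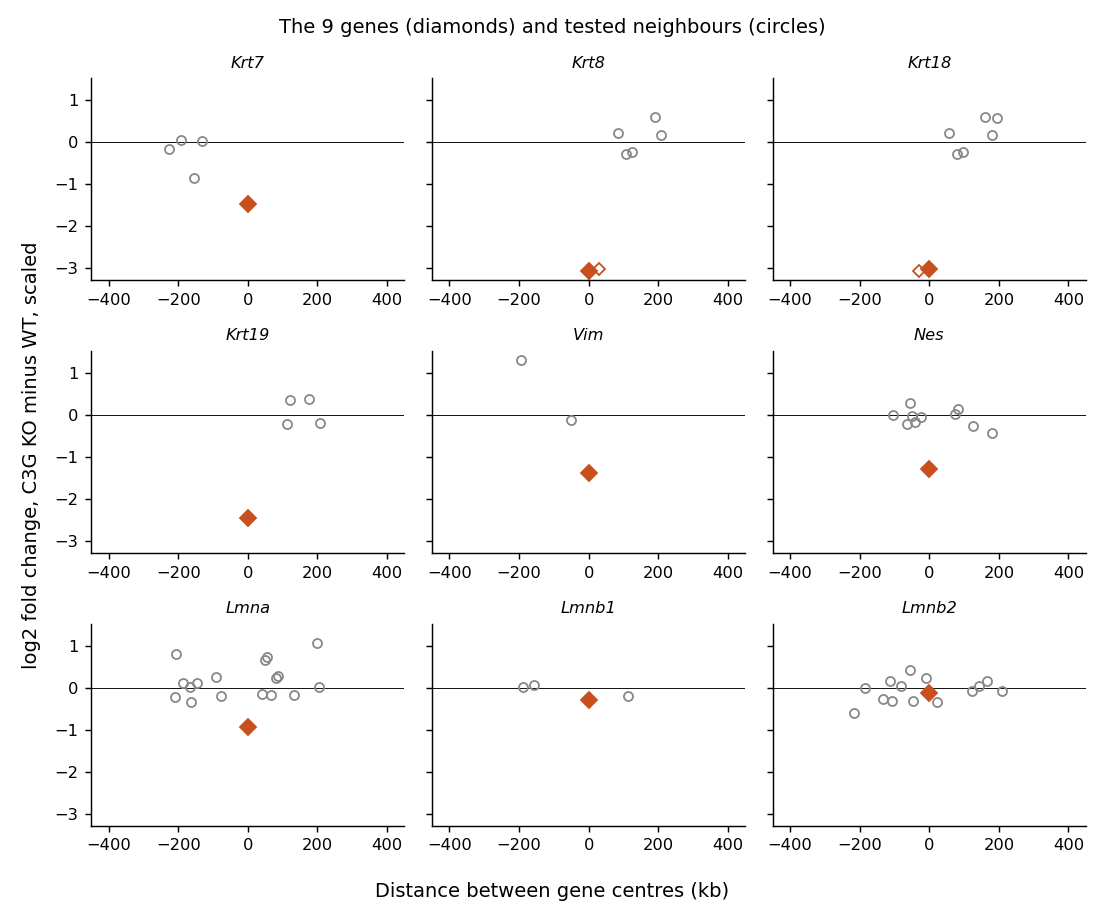
Scaled log2 fold change (C3G KO minus WT) against the distance in kb between gene centres, for each of the 9 genes (filled diamond at 0) and the tested genes within 200 kb (circles; open diamonds where the neighbour is itself one of the 9). Krt8 and Krt18 stand at -3.07 and -3.02 beside neighbours between -0.26 and 0.60.

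The genes most like Krt8 and Krt18 were sought among 7530 genes of at least 5 TPM in the higher group, by the root mean square distance between log2 profiles over the 5 samples, each centred on its WT mean. Krt18 was the nearest of all to Krt8, at 0.0710 log2 units. Next came Acta1, the skeletal muscle actin (0.0940), Grb10, an imprinted adapter of the insulin receptor (0.109), Anxa3, a calcium-dependent membrane-binding annexin (0.129), and Thbs1, the matrix glycoprotein thrombospondin (0.137). For Krt18 the order was Acta1 (0.0622), Krt8 (0.0710), Grb10 (0.0766), Anxa3 (0.0887) and the annexin gene Anxa1 (0.113). The 5 samples carry little more than the genotype difference, so the measure mainly finds genes with a similar difference in log2(scaled TPM + 1). That scale understates differences of low genes, so a near gene need not have a similar fold change. With a pseudocount of 0.1, for example, Acta1 was at -4.74 and Krt18 at -3.14.

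Those genes had scaled log2 fold changes of -2.98 (Acta1), -3.12 (Grb10), -2.92 (Anxa3), -3.22 (Thbs1) and -2.87 (Anxa1). Acta1, for example, stood at 11.26, 10.12 and 10.38 TPM in WT and at 0.17 TPM in both C3G KO samples.

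Markers of cell types that could contribute keratins, vimentin or nestin were counted beside these values. Of 8 trophectoderm markers, 2 were tested and 1 fell (limma), and their summed level was 3.37 to 4.23 scaled TPM in WT and 1.10 to 1.18 in C3G KO (3.72 to 5.16 and 0.68 to 1.07 TPM as deposited). No trophectoderm marker exceeded 2 TPM in any sample, and the most abundant one, Ascl2, was at -0.43 (adjusted p = 0.0667; -0.70 as deposited, adjusted p = 0.000366). Of 8 simple epithelium markers, all tested, 4 fell, with sums of 168 to 184 scaled TPM in WT and 113 to 128 in C3G KO (203 to 225 and 69.9 to 116 TPM as deposited, where all 8 fell). Cdh1, the E-cadherin gene, was at -0.30 (adjusted p = 0.112; -0.98 as deposited, adjusted p = 0.00190). By limma it also passed as lower with the protein-coding total (-0.51, adjusted p = 0.0342) and with quantile normalization (-0.44, adjusted p = 0.0434). The scaled value for Cdh1 depended on the C3G KO sample. It was -0.11 without the first and -0.48 without the second.

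Of 10 smooth muscle and mesenchyme markers, 8 were tested and all 8 fell, with sums of 52.2 to 59.8 in WT and 8.68 to 10.6 in C3G KO (66.1 to 71.6 and 5.37 to 9.60 TPM as deposited). Tagln, an actin-binding protein of smooth muscle, was the most abundant and fell by 3.42 on the log2 scale (limma, adjusted p = 2.5e-05). Both tested fibroblast markers of 8 fell, with sums of 3.37 to 3.81 and 1.70 to 2.27 (3.72 to 5.08 and 1.05 to 2.06 TPM as deposited), Fbn1 being at -0.68 (adjusted p = 0.00197). These markers moved in the same direction as Vim, and their part in its value was not tested.

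The neural progenitor, primitive endoderm and ES cell marker sums were higher in C3G KO after scaling and overlapped between the genotypes as deposited, where none of these markers passed the threshold (limma, with 3 lower and none higher at an unadjusted p under 0.05, all 3 in the ES cell list). Neural progenitor markers summed to 12.4 to 14.1 scaled TPM in WT and 23.3 to 25.6 in C3G KO (15.1 to 16.7 and 15.8 to 21.1 TPM as deposited), mostly from the neuronal tubulin Tubb3 (0.93, adjusted p = 0.00342; 0.28 as deposited, adjusted p = 0.315). Of the 8, 2 were tested by limma and 1 rose, while Neurog2 was at 0 in all samples. Of 8 primitive endoderm markers 1 was tested, Dab2, at 0.69 scaled (adjusted p = 0.0247) and 0.22 as deposited (adjusted p = 0.325). The Dab2 call was also lost with the protein-coding total (adjusted p = 0.0570) and without the first (0.0598) or second WT sample (0.0664). The list's sums were 3.54 to 3.84 in WT and 6.05 to 8.09 in C3G KO after scaling, and 3.91 to 5.12 and 3.74 to 7.33 TPM as deposited. ES cell markers summed to 1708 to 2124 scaled TPM in WT and 2622 to 2928 in C3G KO, against 2281 to 2400 and 1811 to 2376 TPM as deposited. Dppa5a, the most abundant, was at 0.71 (adjusted p = 0.0307) and at 0.0084 as deposited (adjusted p = 0.977). The Dppa5a call was also lost with quantile normalization (0.05, adjusted p = 0.791), with the replicate block (adjusted p = 0.0829) and without the first or second WT sample or either C3G KO sample (adjusted p = 0.0608 to 0.123).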

How the data were processed

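RNA from 3 WT and 2 C3G KO samples of E14Tg2a cells was sequenced on a NovaSeq. The authors' notes name bcl2fastq 2.20, FastQC 0.11.7, STAR 2.5.1b and RSEM 1.2.31, with GRCm38. The deposited values are TPM per Ensembl transcript, which hold no depth, so no counting interval can be given. Samples were grouped by their titles. Of 142647 transcripts, 141524 matched GENCODE M21 and were summed per symbol. Gene TPM were scaled by median of ratios, and genes of at least 1 TPM in at least 2 samples were tested as log2(scaled TPM + 1) with limma 3.58.1 (mean-variance trend, two-sided, Benjamini-Hochberg over 12518 genes, threshold 0.05). The study's DESeq2 needs counts and was not used. The scaled fit had 3 residual and 3.11 prior degrees of freedom. In the fit as deposited the prior degrees of freedom were infinite. Its p-values thus use a spread pooled over genes of similar level, not each gene's own. The p-values measure the spread between these samples, which may be technical, as the study calls the samples independent without saying whether they are separate cultures. The 9 genes, the lists and the tests were chosen with earlier results of these data known. The genes named were the 9, Rapgef1, every other tested intermediate filament gene, from each list up to 3 passing genes with the most positive and 3 with the most negative fold change, the nearest patterns and neighbours, and each marker list's most abundant gene. The chromosome 14 window around Nefl and the transcripts described were chosen after the values were seen. Alternatives covered the scaling, pseudocount (0.1, 5), filter, trend, length and GC, replicate block and leaving out each sample. The fits were also run on simulated data, with known changes only in protein-coding genes of at least 5 TPM on average. The noise there was set, not taken from these samples. Low genes such as Krt7 and the real spread between samples were therefore not covered.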

Additional observations from a re-analysis of the deposited data

How the results depend on the processing

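The 9 genes gave 143 values over 16 alternatives, of which 141 were negative, and the number of them with genotypes apart was 7 to 9 throughout. The sign turned for Lmnb2 with the length and GC correction (0.047), and with that correction plus the replicate block (0.077), and, as deposited, for Krt42 (-0.24), Tor1a (-0.37), Fnta (-0.25), Atg101 (-0.62) and Eif4b (-0.47). Among genes that did not pass the threshold, it also turned for Atg101 (-0.17) and Eif4b (-0.000413) with the protein-coding total, and with quantile normalization for Atg101 (-0.013), Eif4b (-0.078) and Krt10 (0.077). The sign of Ina turned with the length and GC correction (0.090), with the replicate block added (0.072) and among the values leaving out each sample (-0.20 to 0.14), as did that of Atg101 among the latter (-0.070 to 0.16). Genes called lower were 2083, against 7109 as deposited, 3732 scaled to the protein-coding total and 1145 with a filter of 5 TPM. Genes called higher were 1760, against 181 as deposited and 707 scaled to the protein-coding total. Other intermediate filament genes called lower were 7, against 11 as deposited and 2 with the 5 TPM filter. Lamina partners called lower were 4, against 15 as deposited, 11 scaled to the protein-coding total and 2 with no filter. The causes of these differences were not tested beyond the change of scale and of the genes tested. Filament linkers called lower stayed within 1.5 times of 12. Leaving out each sample in turn gave 1385 to 1880 lower and 909 to 1579 higher genes, 4 to 6 other intermediate filament genes, 9 to 12 linkers and 2 to 4 lamina partners. The lowest of these came without the second WT sample for both gene counts, the higher count also being 981 without the first and 990 without the second C3G KO sample, and a C3G KO group of 1 sample was assumed to vary like WT. Correlations of deviations were -0.18 and 0.18 for the same-numbered samples. With 2 C3G KO samples, their deviations mirror each other, so whether replicate numbers pair the samples cannot be told. With the replicate block 1816 genes were lower and 1489 higher, with 6 other intermediate filament genes, 10 linkers and 2 lamina partners lower, and 2 lamina partners with the length and GC correction added. TPM keep no read depth, so the counting error of low genes such as Krt7 is unknown.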
